A study of Mus musculus with 3 samples.

Results

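The p53 response and DNA repair were examined in the mouse ovary 1 week after cyclophosphamide, given alone or before a transfer of stem cells from fat. The genes described are 40 members of these pathways. They were found on the array by symbol or, for Aen, under the older name Isg20l1, and they make up 40 of the 19459 genes named there. Of the 40 genes, 22 are Trp53, its inhibitor Mdm2 and further p53 targets (23 probes), and 18 act in damage signalling or repair (19 probes). The rule goes by gene name and uses no measured value, but the members were chosen with earlier results of these data known. The series holds 4 groups of C57BL/6 mice on 3 two-colour arrays. ADSC-ovary mice received cyclophosphamide and then adipose-derived stem cells into both ovaries, ADSC-iv mice received the drug and then the cells into a vein, POF mice received cyclophosphamide alone as a model of premature ovarian failure, and WT mice were untreated. On each array the Cy5 channel held RNA from 1 of the treated groups and the Cy3 channel RNA from WT mice, so each treated group is 1 array. Not stated in the labels are the drug dose, the age of the mice, the number of animals behind an RNA sample and whether 1 pool of WT RNA served all arrays. No group given the cell carrier alone or control cells is among these samples. With 1 array a group there is no replicate check and no p-value, and differences are given as log2 values with a 2-fold step (absolute log2 of at least 1) as the mark for a gene that rose or fell.

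Cyclophosphamide is activated in the body to a mustard that alkylates DNA and links its strands. Such lesions and the breaks that follow activate the kinases ATM and ATR and their partners CHK2 and CHK1, which stabilise p53, and p53 then induces genes that arrest the cell cycle, start apoptosis or adjust metabolism, along with Mdm2, which returns p53 to a low level. Repair runs through separate routes: homologous recombination and end joining for breaks, the Fanconi pathway for crosslinks, nucleotide and base excision for damaged bases, and direct reversal. In the ovary, oocytes and dividing granulosa cells are the cells best known for their sensitivity to alkylating drugs.

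Promoter windows are shown for 4 p53 targets on which the values below turn or that differ in this respect: Cdkn1a, Mdm2 and Ccng1, classic targets, and Sesn2, which was lower in all treated groups. Each window is the 250 bases before the annotated start, 5′ to 3′ on the strand of the gene, from RefSeq on mouse assembly GRCm38.p6. Capitals mark matches to the p53 half-site, the 10-base consensus that one p53 dimer binds and that reads the same on both strands. The Cdkn1a window lies at chr17:29090729-29090978 (plus strand), that of Mdm2 at chr10:117710759-117711008 (minus strand), that of Ccng1 at chr11:40755287-40755536 (minus strand) and that of Sesn2 at chr4:132510457-132510706 (minus strand).
Cdkn1a: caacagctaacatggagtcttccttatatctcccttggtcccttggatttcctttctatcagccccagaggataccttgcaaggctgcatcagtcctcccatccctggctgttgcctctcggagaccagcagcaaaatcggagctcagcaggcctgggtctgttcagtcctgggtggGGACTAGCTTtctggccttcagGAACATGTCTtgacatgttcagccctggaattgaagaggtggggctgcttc
Mdm2: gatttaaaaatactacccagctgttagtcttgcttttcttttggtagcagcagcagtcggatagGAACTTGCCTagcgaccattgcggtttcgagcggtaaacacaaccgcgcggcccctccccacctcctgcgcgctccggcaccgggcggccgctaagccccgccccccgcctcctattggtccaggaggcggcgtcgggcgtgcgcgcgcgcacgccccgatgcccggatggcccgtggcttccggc
Ccng1: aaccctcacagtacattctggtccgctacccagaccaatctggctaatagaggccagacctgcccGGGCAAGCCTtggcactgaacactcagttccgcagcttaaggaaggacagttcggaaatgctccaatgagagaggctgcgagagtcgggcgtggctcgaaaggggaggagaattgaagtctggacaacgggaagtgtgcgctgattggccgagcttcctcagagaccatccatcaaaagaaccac
Sesn2: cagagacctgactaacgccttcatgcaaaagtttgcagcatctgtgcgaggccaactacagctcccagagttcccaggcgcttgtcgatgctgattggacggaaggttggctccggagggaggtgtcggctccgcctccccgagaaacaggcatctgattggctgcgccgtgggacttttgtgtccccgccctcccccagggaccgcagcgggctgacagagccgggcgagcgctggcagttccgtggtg
The Cdkn1a window held 2 matches, at -73 to -64 and -51 to -42 from the start, 12 bases apart, which counts as a full site (a pair of half-sites at most 13 bases apart). A second annotated Cdkn1a start had no match in its window. Mdm2 had 1 match at -186 to -177, Ccng1 had 1 match at -185 to -176, and Sesn2 had none in these letters. Windows were found for 18 of the 22 genes of the p53 list, and 8 of them held a half-site (Aen, Ccng1, Cdkn1a, Ei24, Gadd45a, Mdm2, Sesn1 and Trp53), a share of 44.4%. Of the repair list, 13 of 18 genes had a window and 1 held a half-site (Polk), a share of 7.69%, against 8.2% of all 27025 genes with a window. A full site stood in 0.0639% of all 32851 windows. The search was chosen after the expression values were known, p53 sites often lie outside such windows, and a match describes letters alone.

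In the 3 arrays, 39.9% to 43.4% of the 31920 gene probes were above background in at least 1 channel, and none of the 768 blank spots was. A spot counted as above background when it exceeded its local background by more than 2 SDs of that background. Of the 40 members, 30 were above background in both channels of every array (16 of the p53 list and 14 of the repair list), against 40.3% of all genes, and 32 were so in at least 1 channel of every array, against 46% of all genes. Btg2, Chek2, Brca1 and Rrm2b reached this on some arrays, and Plk3, Tnfrsf10b, Zmat3 and Fancd2 on none, so these 4 genes have no reported ratio. The SD between probes of 1 gene on an array had a median of 0.125 to 0.154 log2 units. WT channels of different arrays differed with an SD over genes of 0.233 to 0.253, and treated channels with one of 0.373 to 0.398. Differences between arrays below the SD of the WT channels are within the spread between WT channels. The SD of the treated channels also holds differences between treatments. With 1 array a group, none of these SDs measures the spread between replicate arrays. The dyes were not exchanged, so a dye effect of a probe cannot be told apart from a difference between a treated group and WT, while it cancels in differences between arrays. In whole ovaries, fewer cells of a type and less RNA per cell cannot be told apart.

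Few members passed 2-fold, and each share given here rests on at most 2 genes. Relative to WT, 3.03% of members rose and 3.03% fell in POF ovaries, against 1.16% and 0.928% of all genes. In ADSC-ovary ovaries 5.71% rose, against 2.68%, and none fell, against 0.352%. From POF to ADSC-ovary 3.12% went each way, against 0.65% and 0.154%. None did so in the other comparisons, where 0.328% to 2% of all genes did in a given direction. Cdkn1a, the p21 inhibitor of cyclin-dependent kinases, was higher than WT on every array and rose 2-fold in ADSC-ovary and POF ovaries. Sesn2, a stress-induced inhibitor of mTORC1 signalling, was lower than WT on every array and fell by 2-fold in POF ovaries. The death receptor Fas rose in ADSC-ovary ovaries against WT, and against POF by ratios but not by Cy5 levels. Ddit4, another inhibitor of mTORC1, fell in ADSC-ovary ovaries against POF. No gene of the repair list reached 2-fold in any of the 6 comparisons, where 0.154% to 2.68% of all genes did so in a given direction, and with 14 to 17 genes measured a count of 0 is near that share.

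**Figure D1:**
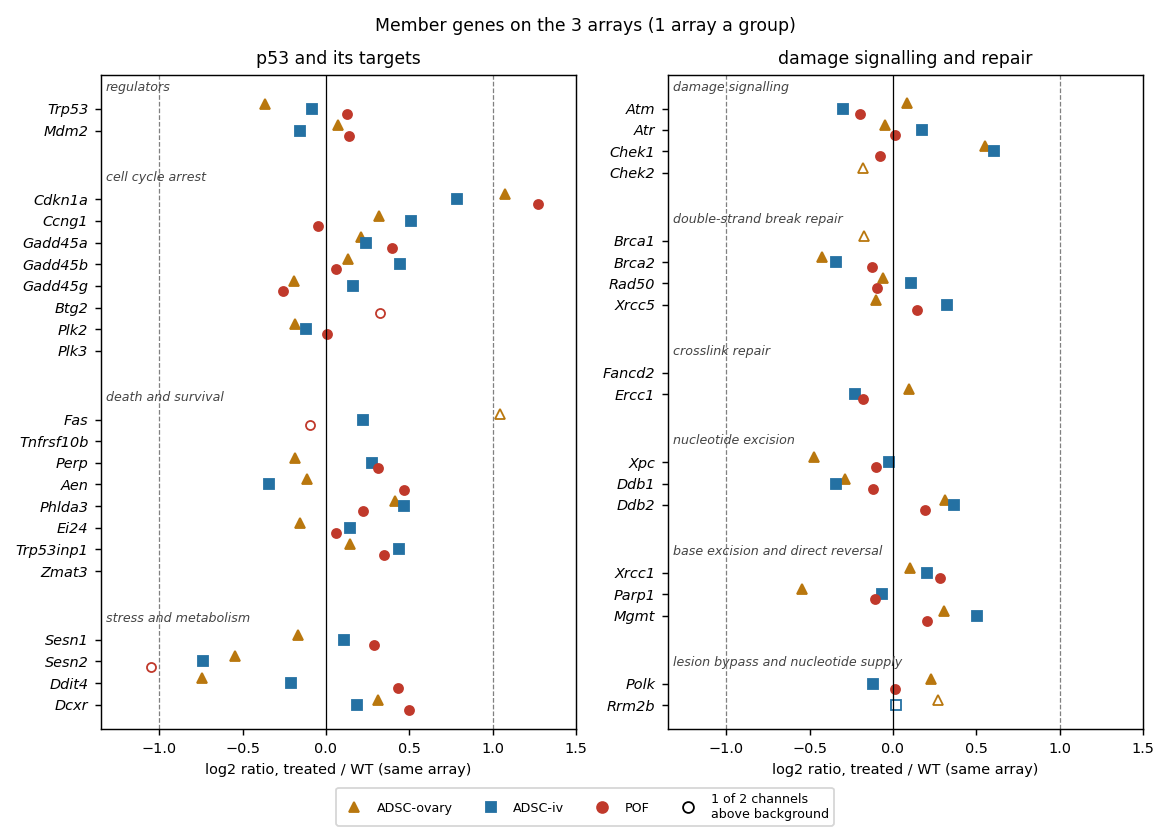
Log2 ratio of each treated group to the WT RNA on the same array (x axis) for the members above background, ordered by role, with 1 point per array, open symbols where 1 of 2 channels was above background and dashed lines at 2-fold. Cdkn1a lies to the right of 0 on all 3 arrays and Sesn2 to the left, while no repair gene reaches a dashed line.

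Trp53, which encodes p53, had normalized log2 intensities of 9.95 in ADSC-ovary, 10.40 in ADSC-iv and 10.75 in POF ovaries, against 10.32, 10.49 and 10.63 for WT on the same arrays. Its log2 ratios to WT were thus -0.37 in ADSC-ovary, -0.09 in ADSC-iv and 0.13 in POF ovaries. The spot of Trp53 carried the scanner flag -100, of unstated meaning, on every array, although both channels were above background. Of the 42 member probes, 16 had this flag in ADSC-ovary, 14 in ADSC-iv and 15 in POF ovaries, and not all of them are named. Mdm2, the ubiquitin ligase that degrades p53, stood at 10.69 in ADSC-ovary, 10.18 in ADSC-iv and 10.61 in POF ovaries, against 10.62, 10.33 and 10.47 for WT. Its ratios of 0.07 in ADSC-ovary, -0.16 in ADSC-iv and 0.14 in POF ovaries were about as large as the spread between probes of a gene. The Mdm2 level was above all WT levels in ADSC-ovary, below them in ADSC-iv and within them in POF ovaries. Such ranks set channels of different arrays side by side, whereas a ratio pairs the 2 channels of a spot. The Trp53 level lay under all WT levels in ADSC-ovary, within them in ADSC-iv and above them in POF ovaries. The WT levels of Trp53 spanned 0.31, and for both genes the ranges of treated and WT levels overlapped.

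Among the genes of cell cycle arrest, Cdkn1a stood apart. Its normalized log2 intensities were 10.01 in ADSC-ovary, 9.42 in ADSC-iv and 10.03 in POF ovaries, against 8.93, 8.64 and 8.76 for WT on the same arrays. Every treated level was above every WT level, and the WT levels spanned 0.29. How often treated and WT levels separate in this way among all genes was not counted, here or for the genes below. Treated and WT levels also differ in dye, so a dye effect of a probe cannot be told apart from such a separation. The log2 ratios were 1.08 in ADSC-ovary, 0.78 in ADSC-iv and 1.27 in POF ovaries, that is 2.11-, 1.72- and 2.42-fold over WT. In POF ovaries the ratio stayed between 1.08 and 1.72 under all settings, and in ADSC-ovary ovaries it fell just short of 2-fold (0.92) when loess was fitted within print blocks.

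Ccng1, a cyclin G1 gene induced by p53 that takes part in feedback on p53, had levels of 9.19 in ADSC-ovary, 9.07 in ADSC-iv and 8.98 in POF ovaries, against 8.87, 8.56 and 9.03 for WT. The ratios were 0.32 in ADSC-ovary, 0.51 in ADSC-iv and -0.05 in POF ovaries, and the groups overlapped. The Gadd45 genes encode small stress sensors that act on arrest and repair. Gadd45a had ratios of 0.21 in ADSC-ovary, 0.24 in ADSC-iv and 0.39 in POF ovaries, above 0 on every array but with overlapping levels. Gadd45b had ratios of 0.13 in ADSC-ovary, 0.45 in ADSC-iv and 0.06 in POF ovaries, and Gadd45g had -0.19 in ADSC-ovary, 0.16 in ADSC-iv and -0.26 in POF ovaries. Plk2, a polo-like kinase, lay between -0.18 and 0.01. The antiproliferative gene Btg2 was above background in POF ovaries alone, with a ratio of 0.32 there (1.25-fold over WT). The WT channel was not above background, so the size of this ratio is uncertain.

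**Figure D2:**
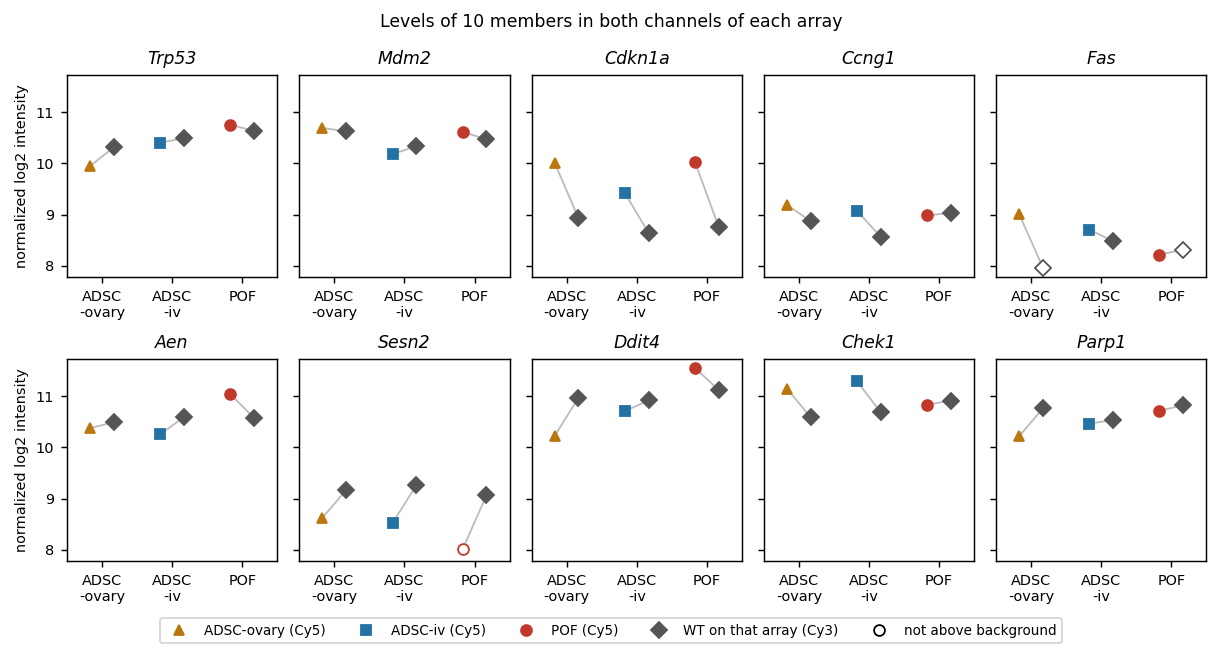
Normalized log2 intensity (y axis) of 10 members in the treated channel (coloured) and in the WT channel of the same array (grey diamonds), with open symbols for channels not above background. Cdkn1a is higher than WT on all 3 arrays, Sesn2 lower on all 3, Fas higher in ADSC-ovary and Ddit4 lower in ADSC-ovary ovaries.

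Of the genes of death and survival, Fas moved. Its levels were 9.01 in ADSC-ovary, 8.71 in ADSC-iv and 8.22 in POF ovaries, against 7.96, 8.48 and 8.31 for WT. The WT channel was above background on the ADSC-iv array and not on the ADSC-ovary and POF arrays. The size of the ADSC-ovary difference, 2.07-fold over WT by the ratio, is therefore uncertain. The log2 ratios were 1.05 in ADSC-ovary, 0.23 in ADSC-iv and -0.09 in POF ovaries. Levels of treated and WT channels overlapped across arrays, the WT levels alone spanned 0.52, the spot carried the flag -100 on every array, and without background correction the ADSC-ovary ratio was 0.66.

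Aen, a nuclease of apoptotic cells, had levels of 10.37 in ADSC-ovary, 10.25 in ADSC-iv and 11.04 in POF ovaries, against 10.49, 10.60 and 10.57 for WT. POF was thus above all WT levels and both ADSC groups were below them, with ratios of -0.12 in ADSC-ovary, -0.34 in ADSC-iv and 0.47 in POF ovaries. Phlda3, which restrains the kinase AKT, had treated levels of 10.27 to 10.51 against WT levels of 9.99 to 10.10, with ratios of 0.42 in ADSC-ovary, 0.47 in ADSC-iv and 0.22 in POF ovaries. Trp53inp1, a stress protein that promotes p53 activity, had treated levels of 11.24 to 11.47 against WT levels of 11.03 to 11.10, with ratios of 0.15 in ADSC-ovary, 0.44 in ADSC-iv and 0.35 in POF ovaries. Neither gene's treated levels overlapped those of WT, a separation with no share over all genes to set it against, and no ratio of either reached 1.5-fold. Perp, a membrane protein of p53-dependent apoptosis, had ratios of -0.19 in ADSC-ovary, 0.28 in ADSC-iv and 0.31 in POF ovaries, and Ei24, an endoplasmic reticulum protein, lay between -0.16 and 0.14.

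The 4 genes of stress and metabolism did not move as one. Sesn2 had levels of 8.63 in ADSC-ovary, 8.52 in ADSC-iv and 8.01 in POF ovaries, against 9.17, 9.26 and 9.06 for WT. All treated levels lay under all WT levels, which spanned 0.20, and the POF channel was not above background. The ratios were -0.54 in ADSC-ovary, -0.74 in ADSC-iv and -1.05 in POF ovaries. The POF ratio is 2.07-fold lower than WT, of uncertain size because of the dim channel. The POF ratio missed 2-fold under 3 settings, with -0.91 under median centring, -0.93 with loess within blocks and -0.98 without background correction. Sesn1, its relative, showed ratios of -0.17 in ADSC-ovary, 0.11 in ADSC-iv and 0.29 in POF ovaries, with overlapping levels.

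Ddit4, also called REDD1, had levels of 10.22 in ADSC-ovary, 10.70 in ADSC-iv and 11.55 in POF ovaries, against 10.97, 10.92 and 11.12 for WT. POF was above all WT levels and both ADSC groups were below them, with ratios of -0.75 in ADSC-ovary, -0.21 in ADSC-iv and 0.43 in POF ovaries. Its spot had the flag -100 on the ADSC-iv array. Dcxr, a carbonyl reductase, had treated levels of 10.01 to 10.23 above WT levels of 9.72 to 9.87, with ratios of 0.31 in ADSC-ovary, 0.19 in ADSC-iv and 0.50 in POF ovaries.

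Within damage signalling, Chek1 differed most from WT in both ADSC groups. It encodes the checkpoint kinase CHK1, which is also tied to S phase in undamaged cells. Its levels were 11.14 in ADSC-ovary, 11.29 in ADSC-iv and 10.83 in POF ovaries, against 10.59, 10.68 and 10.91 for WT. Both ADSC groups were above all WT levels and POF was within them, with ratios of 0.55 in ADSC-ovary, 0.61 in ADSC-iv and -0.08 in POF ovaries. The kinase genes Atm and Atr stayed below 1.5-fold against WT, and in POF ovaries Atm differed most among the damage signalling genes measured. Atm had ratios of 0.09 in ADSC-ovary, -0.30 in ADSC-iv and -0.20 in POF ovaries, and Atr of -0.05 in ADSC-ovary, 0.17 in ADSC-iv and 0.01 in POF ovaries. Chek2, the kinase downstream of ATM, was above background on the ADSC-ovary array alone, in 1 channel, with a ratio of -0.18. Its size and sign are uncertain.

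Of the genes for double-strand break repair, Brca2, a gene of homologous recombination, was below WT on each array, with ratios of -0.42 in ADSC-ovary, -0.34 in ADSC-iv and -0.13 in POF ovaries. The Brca2 spot had the flag -100 on every array. The POF value turned positive under median centring. Rad50, of the complex that senses broken ends, had ratios of -0.06 in ADSC-ovary, 0.11 in ADSC-iv and -0.09 in POF ovaries, and Xrcc5, the Ku80 subunit of end joining, of -0.10 in ADSC-ovary, 0.32 in ADSC-iv and 0.15 in POF ovaries. Brca1 was above background on the ADSC-ovary array alone, in 1 channel, with a ratio of -0.17 of uncertain size and sign. Ercc1, part of a nuclease of crosslink and nucleotide excision repair, had ratios of 0.10 in ADSC-ovary, -0.23 in ADSC-iv and -0.18 in POF ovaries.

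In nucleotide excision repair, the damage-binding gene Ddb2, itself a p53 target in human cells, had treated levels of 11.27 to 11.41, above the WT levels of 10.90 to 11.10. Its ratios were 0.32 in ADSC-ovary, 0.37 in ADSC-iv and 0.19 in POF ovaries. Its partner Ddb1 had ratios of -0.29 in ADSC-ovary, -0.34 in ADSC-iv and -0.12 in POF ovaries, the opposite sign, although the POF value of Ddb1 turned positive under median centring. Xpc, the damage sensor of the pathway, had ratios of -0.47 in ADSC-ovary, -0.02 in ADSC-iv and -0.10 in POF ovaries. The Xpc spot had the flag -100 on the ADSC-ovary and POF arrays.

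Parp1, the polymerase that marks strand breaks, had levels of 10.22 in ADSC-ovary, 10.46 in ADSC-iv and 10.71 in POF ovaries, against 10.76, 10.53 and 10.82 for WT. Its ratios were -0.55 in ADSC-ovary, -0.07 in ADSC-iv and -0.11 in POF ovaries. The ADSC-ovary and ADSC-iv levels were under all WT levels, whereas the POF level was within them. These ranks set channels of different arrays side by side. By ratios to WT on the same array, ADSC-iv (-0.07) was not lower than POF (-0.11). Xrcc1, a scaffold of base excision repair, had ratios of 0.10 in ADSC-ovary, 0.20 in ADSC-iv and 0.29 in POF ovaries. Mgmt removes alkyl groups from guanine and is the direct reversal enzyme for some alkylation damage. Its treated levels were 8.30 to 8.60 and its WT levels 8.09 to 8.30, touching at 8.30 after rounding, with ratios of 0.31 in ADSC-ovary, 0.50 in ADSC-iv and 0.20 in POF ovaries. Of its 2 probes, the brighter one had ratios of 0.46 in ADSC-ovary, 0.69 in ADSC-iv (past 1.5-fold) and 0.20 in POF ovaries, and the dimmer one was above background on the ADSC-iv array alone. Polk, a lesion bypass polymerase, had ratios of 0.23 in ADSC-ovary, -0.12 in ADSC-iv and 0.01 in POF ovaries. Rrm2b, the p53-inducible subunit of ribonucleotide reductase, was above background in 1 channel on both ADSC arrays. Its ratios of 0.27 in ADSC-ovary and 0.02 in ADSC-iv ovaries are thus uncertain.

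Against WT, 35 members were measured in ADSC-ovary ovaries. Of these 2 rose by 2-fold (Cdkn1a and Fas), against 2.68% of all genes, and none fell, against 0.352%. At a step of 1.5-fold the same pair were higher, against 6.38% of all genes, and Ddit4 was lower, against 3.64%. In ADSC-iv ovaries none of 33 members rose or fell by 2-fold, against 2% and 0.551% of all genes. At 1.5-fold Cdkn1a and Chek1 were higher, against 6.71%, and Sesn2 was lower, against 3.86%. In POF ovaries 1 of 33 members rose by 2-fold (Cdkn1a), against 1.16% of all genes, and 1 fell (Sesn2), against 0.928%. At 1.5-fold they were again the 2 called genes, against 3.91% higher and 4.1% lower of all genes. The members' shares were 5.71% higher in ADSC-ovary ovaries and 3.03% each way in POF ovaries at 2-fold, each resting on 1 or 2 genes. At 1.5-fold no share of the members against WT exceeded that of all genes.

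The p53 list had a median log2 ratio to WT of -0.02 in ADSC-ovary ovaries (18 genes measured, 9 above 0), 0.17 in ADSC-iv ovaries (18 genes, 12 above 0) and 0.22 in POF ovaries (19 genes, 15 above 0). All genes measured had medians of 0.00 in ADSC-ovary, 0.00 in ADSC-iv and 0.01 in POF ovaries. The repair list had medians of -0.05 in ADSC-ovary (17 genes, 8 above 0), 0.02 in ADSC-iv (15 genes, 8 above 0) and -0.09 in POF ovaries (14 genes, 6 above 0). Where arrays were centred on the median of all probes in place of loess, the measured genes had medians of 0.15 in ADSC-ovary, 0.18 in ADSC-iv and 0.33 in POF ovaries. Relative to that shift the p53 list lay at 0.10 in ADSC-ovary, 0.24 in ADSC-iv and 0.19 in POF ovaries, against -0.02, 0.17 and 0.21 for the same groups under loess. In POF ovaries 14 of 19 p53 genes were above the median of all genes under either scaling. The repair list lay within 0.10 of the median of all genes on each array under either scaling. Single ratios near 0 took the other sign under median centring: in POF ovaries those of Atm, Brca2, Ccng1, Chek1, Ddb1, Ercc1, Gadd45g, Parp1, Rad50 and Xpc, in ADSC-iv ovaries those of Ddit4, Mdm2, Parp1, Plk2, Polk, Trp53 and Xpc, and in ADSC-ovary ovaries those of Aen, Ei24, Gadd45g and Rad50. Median centring also changed the split of 2-fold calls over all genes, to 442 higher and 22 lower in ADSC-ovary ovaries (266 and 35 under loess), 433 and 28 in ADSC-iv ovaries (203 and 56) and 264 and 30 in POF ovaries (110 and 88). Among the members it left Cdkn1a as the 1 gene called in POF ovaries.

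Markers of other cells differed between the same channels. The 15 macrophage markers, with Aif1 and Fcer1g among them, had median log2 ratios to WT of 1.57 in ADSC-ovary, 1.42 in ADSC-iv and 0.54 in POF ovaries. Of those measured, 14 of 14 in ADSC-ovary, 15 of 15 in ADSC-iv and 14 of 15 in POF ovaries were above 0. Their summed normalized level was 70602.2 in ADSC-ovary, 58165.0 in ADSC-iv and 45275.5 in POF ovaries, against 19438.6 to 23871.1 in WT channels. Of 14 lymphocyte markers 6 to 8 were above background in treated channels, against 3 to 5 in WT channels. Their sums were 4158.2 to 5987.9 against 3242.2 to 3596.6, with Cd3e, Cd4, Cd79a and Ms4a1 among those at background. Of those measured, 8 of 9 in ADSC-ovary, 6 of 7 in ADSC-iv and 5 of 7 in POF ovaries were above 0. Jchain was lower than WT on every array, at -1.68 in ADSC-ovary, -1.83 in ADSC-iv and -1.64 in POF ovaries. Of the 9 neutrophil markers on the array 7 were above background in each treated channel, against 0 or 1 in WT channels, with sums of 4859.1 to 9659.5 against 1718.8 to 1939.3 and with Cxcr2 at background. Erythroid sums were 45007.0 in ADSC-ovary, 29504.0 in ADSC-iv and 43734.5 in POF ovaries, against 12554.8 to 18644.1 in WT channels, with Slc4a1, Epb42 and Klf1 among those at background. Oviduct sums were 3441.4 in ADSC-ovary, 3235.5 in ADSC-iv and 8192.9 in POF ovaries, against 2602.5 to 2885.3 in WT channels, with Foxj1, Pax8, Tekt1 and Cldn3 at background. In POF ovaries Ovgp1 had the highest ratio of this list, 4.02, against a median of 0.79 over the 6 oviduct markers measured.

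The cells of the ovary differed as well. Granulosa markers summed to 78700.9 in ADSC-ovary, 107934.8 in ADSC-iv and 113735.4 in POF ovaries, against 170380.6 to 178309.5 in WT channels, with 12 to 14 of 15 above background and Amh at background throughout. Oocyte markers summed to 26673.8 in ADSC-ovary, 45156.0 in ADSC-iv and 28884.9 in POF ovaries, against 25767.0 to 29405.0 in WT channels, with 11 to 15 of 17 above background and Ddx4 at background throughout. Theca and luteal markers were all 10 above background in every channel. The 18 proliferation markers summed to 37888.7 to 39497.8 in treated and 40294.3 to 41751.4 in WT channels. The part of these cells in the values of Cdkn1a, Sesn2, Fas, Ddit4 and Chek1 was not tested.

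In differences between arrays a dye effect of a probe cancels, whereas the WT levels, which differed between arrays, do not. The comparisons of ADSC-ovary and of ADSC-iv with POF share the POF array, so their values are set side by side and not counted as independent. In ADSC-ovary minus POF, Fas stood at 1.14 on the log2 scale by ratios whose WT channels were both not above background, so the size is uncertain. Ddit4 was lower by 2.27-fold in ADSC-ovary minus POF, at -1.18. In ADSC-iv minus POF, Fas stood at 0.32 and Ddit4 at -0.65. Of 32 members measured in ADSC-ovary minus POF, 1 rose by 2-fold (Fas), against 0.65% of all genes, and 1 fell (Ddit4), against 0.154%. None of 32 did so in ADSC-iv minus POF, against 0.513% and 0.349% of all genes.

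At 1.5-fold the higher members in ADSC-ovary minus POF were Fas and Chek1, against 3.87% of all genes, and the lower one was Ddit4, against 2.96%. In ADSC-iv minus POF the higher member was Chek1, against 4.13%, and the lower ones were Aen and Ddit4, against 3.33%. The share of members was 3.12% for 1 gene and 6.25% for a pair. Under median centring Aen passed 2-fold, as a fall, in ADSC-iv minus POF. That scaling split the calls over all genes into 48 higher and 68 lower in ADSC-ovary minus POF (59 and 14 under loess) and 37 and 67 in ADSC-iv minus POF (47 and 32).

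Differences of ratios carry the noise of both WT channels, and the Cy5 levels alone were therefore set beside them. Cy5 levels in turn lose the pairing of the 2 channels on a spot, so differences between arrays in that spot do not cancel. For Ddit4 the Cy5 levels gave -1.33 in ADSC-ovary and -0.85 in ADSC-iv minus POF, larger than the ratios did. For Fas they gave 0.79 in ADSC-ovary and 0.49 in ADSC-iv minus POF, so the 2-fold call in ADSC-ovary ovaries did not hold on Cy5 levels. For Aen they gave -0.66 in ADSC-ovary and -0.78 in ADSC-iv minus POF, where the ratios gave -0.58 and -0.81. Chek1 stood at 0.63 in ADSC-ovary and 0.69 in ADSC-iv minus POF by ratios, and at 0.31 and 0.46 by Cy5 levels.

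Cdkn1a stood at -0.20 in ADSC-ovary and -0.49 in ADSC-iv minus POF by ratios, and at -0.02 and -0.61 by Cy5 levels. The ADSC-ovary value was 0.09 without background correction, so its sign is not settled. Sesn2 stood at 0.51 in ADSC-ovary and 0.31 in ADSC-iv minus POF by ratios, and at 0.61 and 0.51 by Cy5 levels, the first of which passed 1.5-fold. The POF channel of Sesn2 was not above background, so the size of these differences is uncertain. Trp53 had -0.49 in ADSC-ovary and -0.21 in ADSC-iv minus POF, and -0.81 in ADSC-ovary minus POF on Cy5 levels. The WT level of Trp53 was also lower on the ADSC-ovary array than on the POF array (10.32 against 10.63). Parp1 had -0.44 in ADSC-ovary and 0.04 in ADSC-iv minus POF. Further values in ADSC-ovary minus POF were -0.50 for Perp, -0.46 for Sesn1 and -0.37 for Xpc.

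**Figure D3:**
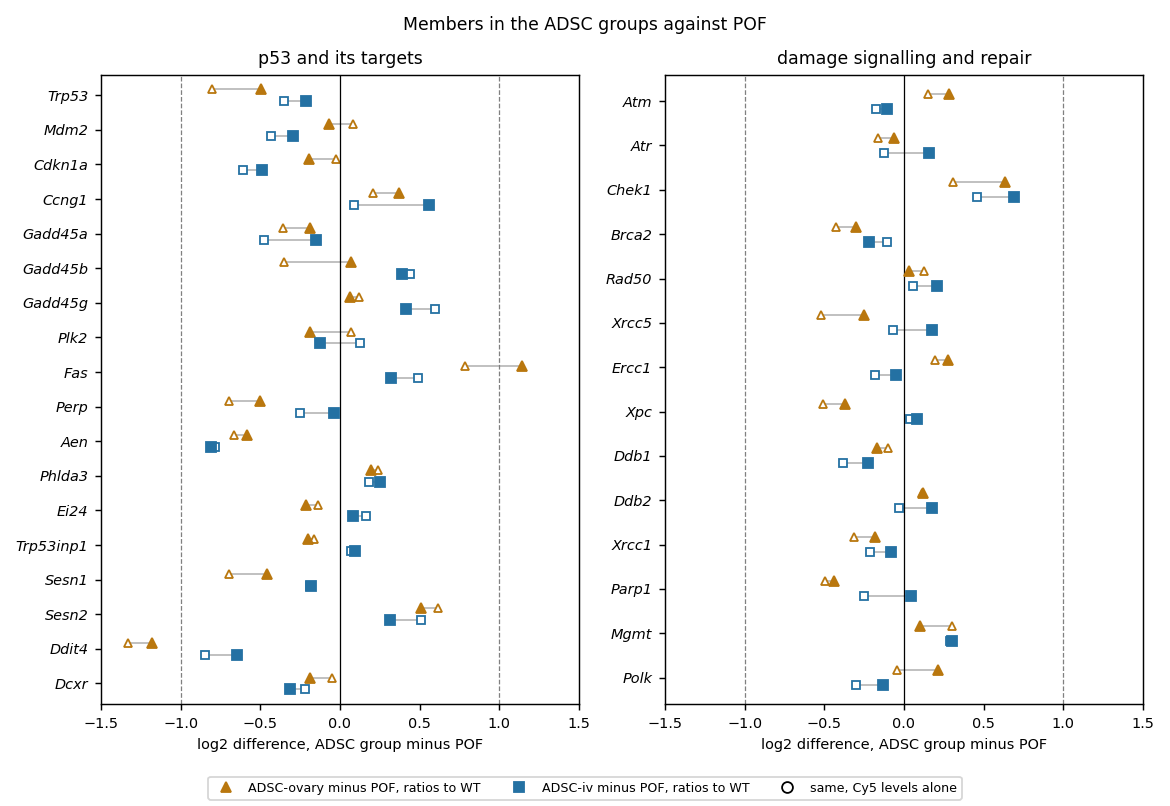
Log2 difference between each ADSC group and POF (x axis) for the members measured on both arrays, from ratios to WT (filled) and from Cy5 levels alone (open), with dashed lines at 2-fold. Fas lies at 1.14 and Ddit4 at -1.18 in ADSC-ovary minus POF by ratios, and the open symbol of Fas lies inside the 2-fold line.

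The p53 list had a median of -0.19 in ADSC-ovary minus POF (18 genes, 6 above 0) and -0.08 in ADSC-iv minus POF (18 genes, 8 above 0), against 0.00 and -0.00 over all genes. The repair list had medians of -0.01 in ADSC-ovary (14 genes, 7 above 0) and 0.06 in ADSC-iv minus POF (14 genes, 8 above 0). The median of the p53 list less that of all genes was -0.23 in ADSC-ovary and -0.12 in ADSC-iv minus POF under median centring, and -0.19 and -0.08 for the same pairs under loess. Macrophage markers were higher than in POF, with medians of 0.85 in ADSC-ovary and 0.45 in ADSC-iv minus POF. Oocyte markers had medians of 0.06 in ADSC-ovary and 0.75 in ADSC-iv minus POF, and granulosa markers of -0.31 in ADSC-ovary and 0.04 in ADSC-iv minus POF. Their part in these values was not tested.

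The route of transfer was compared by setting ADSC-ovary against ADSC-iv. None of 33 members differed by 2-fold, against 0.634% higher and 0.328% lower among all genes. Median centring gave 60 higher and 48 lower calls over all genes (60 and 31 under loess). At 1.5-fold Fas was higher (0.82), against 3.11% of all genes, and no member was lower, against 2.9%. By Cy5 levels Fas differed by 0.30. Below 1.5-fold, Atm stood at 0.39, Ercc1 at 0.33, Polk at 0.35, Ddit4 at -0.53, Parp1 at -0.48, Perp at -0.47, Xpc at -0.45 and Xrcc5 at -0.43. The medians were -0.12 for the p53 list (18 genes, 6 above 0) and -0.08 for the repair list (15 genes, 5 above 0), against 0.00 over all genes. Oocyte markers had a median of -0.81 and neutrophil markers of 0.96 in this comparison.

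Other genes of the same pathways gave a wider view. Of 48 further p53 pathway genes, 43 were on the array and 22 to 25 were measured against WT. Their medians were -0.05 in ADSC-ovary, 0.04 in ADSC-iv and 0.02 in POF ovaries. Tap1, a p53 target in human cells that transports peptides for class I presentation and also answers to interferon, was the one gene past 2-fold, at 1.01 in ADSC-ovary, 1.19 in ADSC-iv and 1.33 in POF ovaries. That is 1 of 22, 1 of 25 and 1 of 23 genes in these groups, against 2.68%, 2% and 1.16% of all genes. Of 121 further repair genes, 116 were on the array and 88 to 91 were measured, with medians of -0.00 in ADSC-ovary, 0.04 in ADSC-iv and -0.05 in POF ovaries. None rose by 2-fold on any array, against 2.68% of all genes in ADSC-ovary, 2% in ADSC-iv and 1.16% in POF ovaries. In POF ovaries 2 of 88 fell, against 0.928% of all genes, and none fell in ADSC-ovary or ADSC-iv ovaries, against 0.352% and 0.551%.

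Those 2 genes were Psmc3ip, which acts with Mnd1 in meiotic recombination, and Rnf168, a ubiquitin ligase that marks chromatin around breaks. Psmc3ip had ratios of -0.61 in ADSC-ovary, -0.91 in ADSC-iv and -1.54 in POF ovaries, and Rnf168 had -0.89 in ADSC-ovary, -0.73 in ADSC-iv and -1.42 in POF ovaries. Both channels of both probes were above background on every array, and under median centring the POF values were -1.09 and -1.03. By pathway, the medians in POF ovaries were -0.01 for damage signalling (12 genes), 0.00 for homologous recombination (14), -0.10 for end joining (8), 0.13 for crosslink repair (7), -0.06 for nucleotide excision (14) and 0.04 for base excision (15). Mismatch repair (4 genes) stood at -0.08, direct reversal and bypass (11) at -0.07 and meiotic recombination (3 of 12 genes on the array) at -0.41. In ADSC-ovary and ADSC-iv ovaries the meiotic median was 0.01 and -0.01 over 4 genes.

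**Figure D4:**
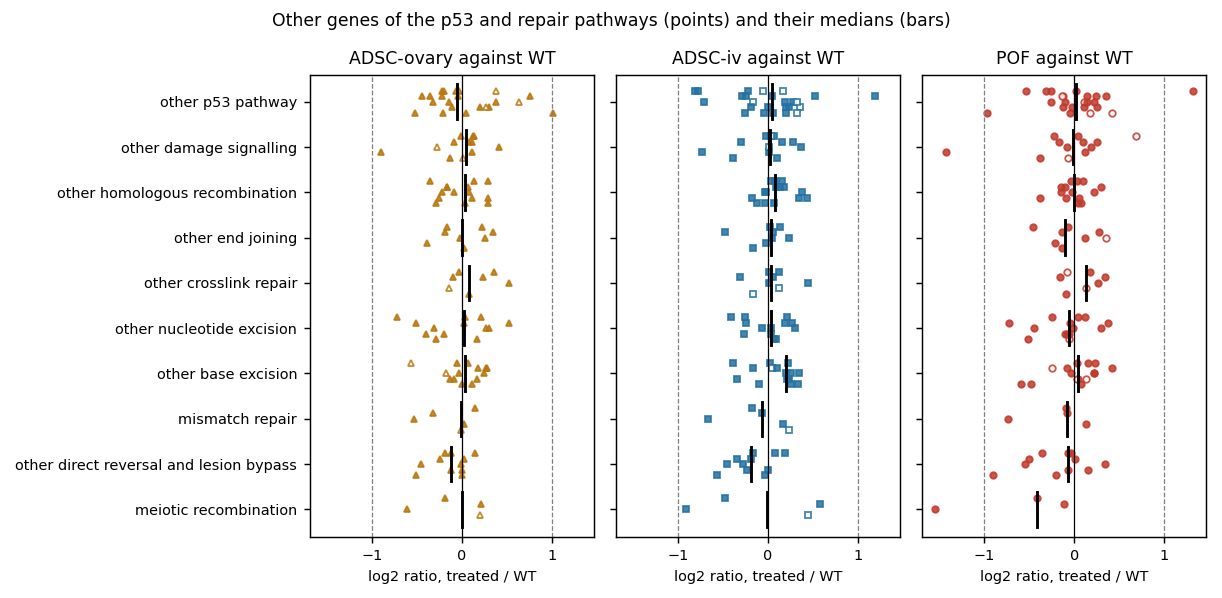
Log2 ratio to WT (x axis) of other p53 pathway and repair genes by pathway on each array, with points for genes, bars for medians, open symbols where 1 channel was above background and dashed lines at 2-fold. Points spread on both sides of 0 in most pathways, with Tap1 past the right line on all 3 arrays and Psmc3ip and Rnf168 past the left line in POF ovaries.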

How the data were processed

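Per the file headers, the deposited scanner tables give the median spot intensity and background of each channel, with a ratio that equals Cy5 over Cy3 spot intensity (within 1% in 100% of spots), from LuxScan 3.0 images, per the design text of the series. The authors' deposited processed values are log2 ratios, used as an alternative, whose normalization is not given in the sources used here. They followed the background-subtracted ratio with r of 0.9575 to 0.9822 over spots with both channels more than 500 above background. Dimmer spots are not covered by this r. The array medians of the authors' values were 0.0391 (POF), 0.0082 (ADSC-iv) and 0.0228 (ADSC-ovary). Intensities were corrected with normexp (offset 50) and normalized by loess within arrays, control spots at weight 0, and by Aquantile for single channels. These steps used limma 3.58.1 under R 4.3.3. The correction and loess were tested on simulated data in which equal numbers of bright probes rose and fell. Unequal numbers of rises and falls and the single-channel step were not simulated. Further steps used Python 3.11.15 with pandas 2.3.3, numpy 2.4.6 and matplotlib 3.10.9. Probes of a gene were averaged, with names updated through a RefSeq table for GRCm38.p6. A gene counted as measured with 1 channel or more above background on every array of a comparison. A bound sets the brighter channel against the higher of the dim spot and the lowest signal above background. It equalled the ratio for Btg2 and Sesn2 in POF and for Fas and Rrm2b in ADSC-ovary ovaries, so no bound is given. None could be set for Chek2 and Brca1, where the channel above background had the lower level. All 40 members are named. Of other pathway genes those past 2-fold and above background in both channels are named, at most 4 a list and comparison. Of each marker list the 2 largest differences among genes above background in both channels were taken, of which the text gives only some. Members and lists were chosen with earlier results of these data known. Some list genes are not reported here. The number of arrays limits the precision.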

Additional observations from a re-analysis of the deposited data

How the results depend on the processing

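With 12 alternative settings, no result took the other direction past 2-fold. Median centring moved the p53 median to 0.52 (POF minus WT), 0.42 (ADSC-iv minus WT), 0.25 (ADSC-ovary minus WT) and -0.37 (ADSC-ovary minus POF), and the repair median to 0.31 (POF minus WT), 0.15 (ADSC-ovary minus WT) and -0.19 (ADSC-ovary minus POF). It moved the median of all genes too. Cy5 levels alone put the repair median at -0.12 in ADSC-iv minus POF.

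Counts of members past 2-fold became 1 in POF minus WT under median centring, loess within blocks, no background correction and both channels above background. In ADSC-iv minus WT they became 1 with the authors' values and 3 at 1.5-fold. In ADSC-ovary minus WT they became 0 with loess within blocks, and 1 without background correction, with both channels above background or with spots of flag -100 left out. In ADSC-iv minus POF they became 1 under median centring or with Cy5 alone and 3 at 1.5-fold. In ADSC-ovary minus POF they became 1 without background correction, with both channels above background, with flagged spots left out or with Cy5 alone. In ADSC-ovary minus ADSC-iv they became 1 with the authors' values or at 1.5-fold. Filters shorten the list by their construction, and for the rest the cause was not tested. The other 162 values of medians and counts stayed within 0.154 log2 units or 1.5 times. Of the values for single named genes, 38 did so and 13 did not. No paired analysis was possible because each group has 1 array. Depth has no meaning for arrays, and dim signals limit Fas and Sesn2.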
